A study of Mus musculus with 4 samples.

Results

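Genes of the major histocompatibility complex (MHC) and their partners in antigen presentation were read with 67 array probes, which carry 51 gene names, out of 55681 probes and 34797 gene names on the array. The set holds every non-control probe whose gene name starts with H2-, the mouse name of the MHC, and the probes of B2m, Tap1, Tap2, Tapbp, Psmb8, Psmb9, Psmb10, Cd74, Ciita and Nlrc5. It divides into 40 probes of class I genes (29 names), 10 of class I partners, 13 of class II genes (10 names), 2 of class II partners and 2 of other genes whose names begin with H2- (H2-Ke2 and H2-Ke6). After a filter on dim probes, 52 of the 67 probes (45 genes) and 44239 probes in all were tested.

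The arrays compare 2 kinds of matrix-secreting cells, odontoblasts, which deposit dentin, and osteoblasts, which deposit bone. Per the labels, the cells came from 2-week-old mice in which enhanced green fluorescent protein (EGFP) is driven by 2.3 kb of the type I collagen promoter. Dental pulp and calvarial bone of the same donors were digested and the green cells sorted, so the sort selected cells by the activity of that promoter. The strain is given as C57BL/6 on the odontoblast channel. Each of 4 Agilent 2-colour arrays held 1 RNA labelled primary odontoblast in Cy5 and 1 labelled calvarial osteoblast in Cy3. The transgene, the age and the sort are shared by both. How many animals stand behind each array is not stated, so the spread between arrays, on which every p-value rests, may be technical.

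The called defining markers of the 2 cell types lay on the side opposite to the labels. The dentin and odontoblast markers Dspp, Nes, Dmp1, Wnt10a and Sall1 all had more signal in Cy3 (list median -2.00 on the log2 ratio of Cy5 over Cy3), and the 9 bone and osteoblast markers had a median of 1.80 toward Cy5. Of these, Wnt10a (-5.91) and Sall1 (-2.99) were called in Cy3, and Ifitm5 (5.05), Pth1r (4.74) and Col1a2 (2.79) in Cy5, by limma at an adjusted p under 0.05. Among uncalled markers, Col1a1 was 1.80 and Ibsp 2.65, while Sp7 (0.015) and Alpl (0.054) were near 0 with arrays on both sides. The channels are therefore named by dye throughout, and every cell type in what follows turns if the labels were exchanged. No array had its dyes swapped, so dye and cell type cannot be told apart. All 4 arrays came from 1 slide and 1 scan. Between 67.8% and 85.2% of probes per channel were well above background.

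Class I molecules present peptides made inside the cell, mostly by the proteasome, to CD8 T cells and natural killer cells. Each consists of a heavy chain, encoded by an H2-K, H2-D, H2-Q, H2-T or H2-M gene, and the light chain beta-2 microglobulin (B2m). Nearly all nucleated cells carry them, and interferons raise them through the transactivator Nlrc5. Class II molecules present peptides taken up from outside to CD4 T cells, are found mainly on dendritic cells, B cells and macrophages, and depend on the transactivator Ciita and on the invariant chain Cd74. The peptide is exchanged by H2-DM, which H2-O restrains.

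Class I heavy chain genes are close copies of one another, so the probes themselves bear on how far their signals can be separated. Of the 67 probes, 12 share a run of 18 or more bases with a probe of another gene name. Of these, 9 share with another member gene and 5 with a gene outside the set. Runs were sought only among probes of the array, not in transcripts, so a probe without one is not thereby specific to its gene. The probes below are those on which this turns, with bases in such shared runs in capitals; coordinates are those of the probe files, on mouse build mm9.
H2-K1, brightest probe, chr17:34133984-34134043: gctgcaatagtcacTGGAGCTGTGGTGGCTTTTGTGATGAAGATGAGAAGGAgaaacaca
H2-K1, probe with 10 spots, chr17:34133055-34133114: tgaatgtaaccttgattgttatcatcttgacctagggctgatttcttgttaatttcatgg
H2-T23, chr17:36167338-36167574: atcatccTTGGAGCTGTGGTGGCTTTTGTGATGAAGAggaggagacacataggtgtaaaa
H2-Q6, chr17:35565247-35565306: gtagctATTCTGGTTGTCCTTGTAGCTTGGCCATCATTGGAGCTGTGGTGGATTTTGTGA
H2-Q7, chr17:35580315-35580374: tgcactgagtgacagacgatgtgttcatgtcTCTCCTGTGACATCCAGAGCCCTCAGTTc
H2-K2, brightest probe, chr17:34111941-34112000: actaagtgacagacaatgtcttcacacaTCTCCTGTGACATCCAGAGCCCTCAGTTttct
The H2-K1 and H2-T23 probes share a stretch of capitals, as do the H2-Q7 and H2-K2 probes, while the H2-K1 probe with 10 spots shares no such run. The H2-T23 probe spans more genome than its length in the file's coordinates. The Ciita probe is largely a repeat, with 8 copies of the unit AAAAC. It shares runs with probes of 6 genes outside the set, so its signal cannot be taken as that of Ciita.

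H2-Ab1, the beta chain of the class II molecule I-A, has 2 probes that overlap. They are shown because they read the same stretch, with the single differing base in capitals.
H2-Ab1, brightest probe, chr17:34406296-34406355: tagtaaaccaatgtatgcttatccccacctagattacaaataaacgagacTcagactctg
H2-Ab1, second probe, chr17:34406305-34406363: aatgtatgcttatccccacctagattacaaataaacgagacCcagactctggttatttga
Of the 51 overlapping bases, 50 are identical, and the substitution is T51C, counted from base 1 of the brightest probe.

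Promoters were taken from RefSeq (GRCm38.p6, 250 bases before to 50 after the start), which held 36 of the 51 genes. A script searched them on both strands for the kappa B site of the class I enhancer A (GGGATTCCC), the Y box of MHC promoters (CTGATTGG) and the core of an interferon regulatory factor element (AANNGAAA). These were found in 0.353%, 4.1% and 23.9% of all 32851 promoters of that length. Of the 36 member genes, 4, 18 and 19 had them in any of their promoters, so promoters stand beside genes. Class I heavy chain genes are close copies, so their matches are not separate. A match is a description of letters, not a site. The promoters below are examples from class I genes, B2m and class II genes, with the matches in capitals.
H2-K1 promoter, chr17:34000298-34000597, minus strand: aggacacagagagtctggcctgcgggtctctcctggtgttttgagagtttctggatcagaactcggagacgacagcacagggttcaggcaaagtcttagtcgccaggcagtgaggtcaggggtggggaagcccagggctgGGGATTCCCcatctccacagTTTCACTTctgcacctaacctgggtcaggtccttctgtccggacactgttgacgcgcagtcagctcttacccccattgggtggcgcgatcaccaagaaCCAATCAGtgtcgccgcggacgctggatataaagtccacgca
H2-D1 promoter, chr17:35262844-35263143, plus strand: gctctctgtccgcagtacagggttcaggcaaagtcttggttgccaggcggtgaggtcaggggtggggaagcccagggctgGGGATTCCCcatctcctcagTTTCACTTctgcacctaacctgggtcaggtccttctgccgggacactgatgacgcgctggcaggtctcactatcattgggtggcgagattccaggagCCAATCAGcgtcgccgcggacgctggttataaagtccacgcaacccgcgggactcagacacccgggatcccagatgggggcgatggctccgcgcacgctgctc
H2-Q7 promoter, chr17:35438905-35439204, plus strand: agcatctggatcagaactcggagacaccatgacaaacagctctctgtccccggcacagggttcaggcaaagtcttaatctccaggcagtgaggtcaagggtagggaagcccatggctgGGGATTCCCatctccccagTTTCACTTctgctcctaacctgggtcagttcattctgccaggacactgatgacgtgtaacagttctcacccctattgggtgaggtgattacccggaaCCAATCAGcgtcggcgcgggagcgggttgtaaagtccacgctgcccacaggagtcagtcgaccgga
B2m promoter, chr2:122147437-122147736, plus strand: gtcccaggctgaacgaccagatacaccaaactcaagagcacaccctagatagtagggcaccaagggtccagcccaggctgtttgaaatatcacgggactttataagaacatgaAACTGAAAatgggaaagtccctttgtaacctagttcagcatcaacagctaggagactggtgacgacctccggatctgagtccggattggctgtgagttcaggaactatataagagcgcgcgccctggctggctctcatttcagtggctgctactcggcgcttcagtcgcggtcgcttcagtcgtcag
H2-Aa promoter, chr17:34287774-34288073, minus strand: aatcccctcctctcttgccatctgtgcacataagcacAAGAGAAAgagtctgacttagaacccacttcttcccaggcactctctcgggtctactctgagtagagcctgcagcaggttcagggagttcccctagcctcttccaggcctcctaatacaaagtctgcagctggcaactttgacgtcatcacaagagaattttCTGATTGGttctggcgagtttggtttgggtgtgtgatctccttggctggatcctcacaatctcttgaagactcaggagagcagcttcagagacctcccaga
H2-Eb1 promoter, chr17:34305617-34305916, plus strand: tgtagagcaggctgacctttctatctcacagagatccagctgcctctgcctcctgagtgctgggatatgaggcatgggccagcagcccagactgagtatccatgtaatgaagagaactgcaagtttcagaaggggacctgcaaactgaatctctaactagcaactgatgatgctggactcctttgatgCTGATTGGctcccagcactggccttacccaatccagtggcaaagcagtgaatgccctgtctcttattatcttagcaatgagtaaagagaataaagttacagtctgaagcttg
H2-K1, H2-D1 and H2-Q7 held all 3 matches in the same order, and of the 36 genes these and H2-Q6 were the 4 with the kappa B letters. B2m held the interferon regulatory factor core alone, H2-Aa that core and the Y box, and H2-Eb1 the Y box alone. None of the 8 matched class II genes held the kappa B letters, and 4 held the Y box, namely H2-Aa, H2-Eb1, H2-Eb2 and H2-Oa.

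Part of the class I genes and of their partners were higher in Cy5 (labelled odontoblast), and class II genes had no common direction. Of the 52 tested member probes, 15 (14 genes, 28.8%) were called in Cy5 and 0 in Cy3, where 0.999% of all tested probes were called in Cy5 and 0.624% in Cy3. The called ratios other than that of H2-Aa, whose Cy3 signal was not well above background on any array, ran from 1.40 to 2.33 on the log2 scale, or 2.64-fold to 5.02-fold. The limma adjusted p of the 15 ran from 0.0183 to 0.0491. By class, 11 of 29 tested class I probes, 3 of 9 class I partner probes, 1 of 10 class II probes and 0 of the 4 others were called. At an unadjusted p under 0.05, 31 of the 52 member probes stood beside 18.8% of all tested probes. The ratio was above 0 on all 4 arrays for 34 of the 52 (15.7% of all tested probes) and below 0 on all 4 for 4 (14.7%). The median member ratio was 0.99 over tested probes and 0.51 over all 67 without the filter, beside -0.0008 over all tested probes.

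The calls sat close to the threshold and needed all the arrays. Without array 1, 2 or 4 no member was called, and without array 3 there were 5. Over all tested probes the calls then numbered 0, 0 and 46, and 272 without array 3. The same limma fits were also read at an unadjusted p under 0.05. There, 34 of 55, 28 of 53 and 28 of 54 member probes passed, and 30 of 56 without array 3. Over all tested probes, 6120 of 45688, 6720 of 46043 and 5811 of 44823 passed, and 8351 of 46494 without array 3. Median centring in place of loess moved the median of all tested probes by 0.16 toward Cy5, and the calls over all probes from 442 in Cy5 and 276 in Cy3 (61.6% in Cy5) to 2242 and 430 (83.9%). The bright members H2-D1 (1.68 to 2.43), H2-K1 (1.57 to 2.30) and H2-Q5 (1.40 to 2.29) moved further toward Cy5. The dim H2-M1 (0.23 to 0.03) and H2-M3 (0.19 to -0.11) moved the other way. Members called in Cy5 under median centring were 23, and still 0 in Cy3. They were fewer under other settings, 3 with Agilent's processed signals or the deposited value table, 7 with scale normalization between arrays and 8 with a normexp offset of 0. Over all tested probes, 0.703%, 1.11% and 0.839% were called in Cy5 under these settings, in the same order.

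The classical class I heavy chains, H2-K1 and H2-D1, which present peptides to CD8 T cells, were called by all 3 of their probes. For H2-D1 the log2 ratios were 1.30, 2.12, 1.28 and 2.02 on arrays 1 to 4, a mean of 1.68 ± 0.23 (SE, n = 4; limma adjusted p = 0.0406). The brightest H2-K1 probe gave 1.45, 2.07, 1.34 and 1.40, a mean of 1.57 ± 0.20 (adjusted p = 0.0357). All 8 values lay above 0, with array 2 the highest for both genes. The H2-K1 probe with 10 spots, which shares no long run with another gene's probe, gave 1.29, 2.24, 1.23 and 1.52, a mean of 1.57 ± 0.23 (adjusted p = 0.0491). Its spots had an SD of 0.043 to 0.053 within an array, against an SD of 0.46 between the arrays.

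**Figure D1:**
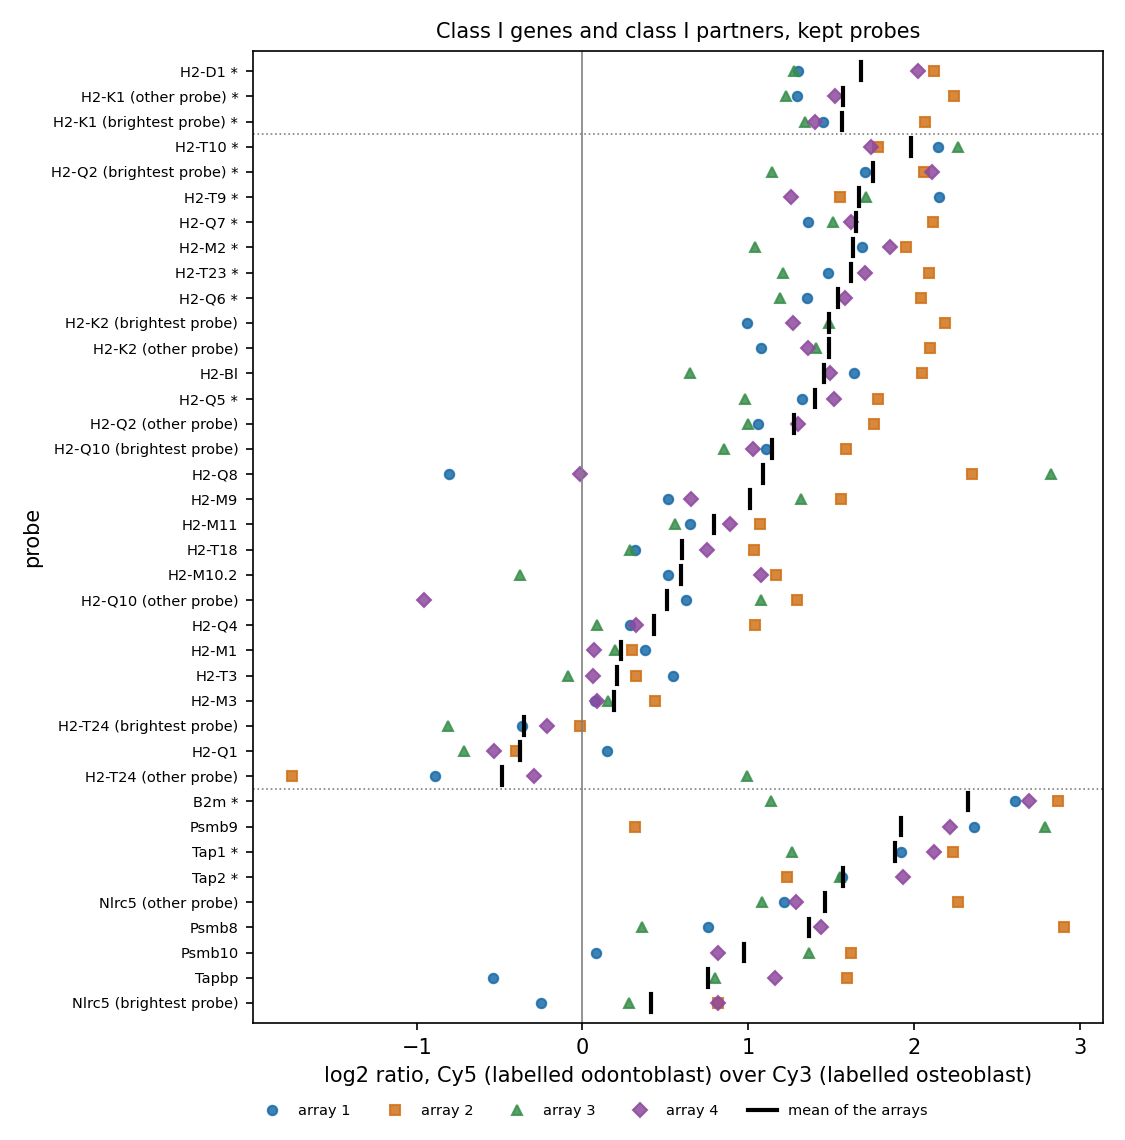
Log2 ratio of Cy5 over Cy3 (horizontal axis) of each tested probe of class I genes and class I partners (vertical axis), with 1 symbol per array and a black bar at the mean of the 4 arrays. Asterisks mark probes called at a limma adjusted p under 0.05; dotted lines separate H2-K1 and H2-D1 at the top, the other class I genes, and the partners at the bottom. Every called probe lies above 0 on all 4 arrays, and H2-Q8 runs from -0.81 to 2.83.

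Among the other class I genes, 8 probes of as many genes were called. H2-T10, of a pair known as ligands of gamma-delta T cells, had the highest ratio, with 2.14, 1.78, 2.27 and 1.74 on arrays 1 to 4 (mean 1.98 ± 0.19, adjusted p = 0.0183). H2-Q2 gave 1.71, 2.06, 1.14 and 2.11 (mean 1.76 ± 0.23, adjusted p = 0.0359), and its second probe, uncalled, had a mean of 1.28 ± 0.21 (adjusted p = 0.0566). H2-T9 gave 2.15, 1.55, 1.71 and 1.26 (mean 1.67 ± 0.21, adjusted p = 0.0341), from a probe whose file annotation lists H2-T22 transcripts. Array 1 was the highest for H2-T9 and array 3 for H2-T10, unlike H2-K1 and H2-D1.

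H2-Q7, which encodes Qa-2, gave 1.36, 2.11, 1.51 and 1.62 (mean 1.65 ± 0.20), from a probe whose file annotation lists H2-Q9 transcripts too. H2-T23, which encodes Qa-1, the ligand of an inhibitory natural killer cell receptor, gave 1.48, 2.09, 1.21 and 1.71 (mean 1.62 ± 0.21). H2-Q6 had a mean of 1.54 and H2-Q5 of 1.40. All 4 were called, and since the H2-K1, H2-T23 and H2-Q6 probes share runs with other probes, these ratios may not be separate measurements of separate genes. H2-M2 was called from its probe with 10 spots (mean 1.63 ± 0.22, adjusted p = 0.0380), while its second probe did not pass the filter. The mean log2 intensity over both channels was 14.03 for the called H2-M2 probe and 6.58 for the second. The second was well above background on 1 array in each channel and gave 0.12, -0.93, 1.11 and 0.25 (mean 0.14). Whether the called probe reads H2-M2 transcripts was not tested.

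The lowest ratios among the other class I genes belonged to H2-Q1, H2-T24 and H2-M3, all uncalled. H2-Q1 gave 0.15, -0.40, -0.72 and -0.54 (mean -0.38, adjusted p = 0.395). H2-T24 gave -0.36, -0.02, -0.81 and -0.21 with its brightest probe (mean -0.35, adjusted p = 0.407), and its other probe ran from -1.76 to 0.99. H2-M3, which presents N-formylated peptides of bacteria, gave 0.07, 0.44, 0.15 and 0.09 (mean 0.19, adjusted p = 0.592), with Cy3 not well above background on any array, so its place beside H2-T3 (0.21) has no meaning. With median centring H2-T24 (0.043) and H2-M3 (-0.11) turned sign. Besides H2-M2 and H2-M3, the 4 tested genes of the H2-M group had means from 0.23 (H2-M1) to 1.01 (H2-M9).

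By locus, the 5 H2-K and H2-D probes had a median of 1.57, the 10 H2-Q probes of 1.21 (4 called), the 7 tested H2-T probes of 0.60 (3 called) and the 6 tested H2-M probes of 0.69 (1 called). Called and uncalled class I probes also differed in brightness. The 11 called ones had a mean log2 intensity (mean of the channels) from 11.3 to 15.3, while 9 of the 18 uncalled ones lay under 9. Brightness did not separate them fully. The uncalled second H2-Q2 probe (14.1) and brightest H2-T24 probe (12.9), among others, lay within the called range. H2-Q4, also uncalled, had the highest intensity, 16.0, and ratios of 0.29, 1.04, 0.09 and 0.32 (mean 0.43, adjusted p = 0.357). With median centring in place of loess, H2-Q4 had a mean of 1.46 and was called (limma adjusted p = 0.0246). H2-M10.1, H2-M10.3, H2-M10.4, H2-M10.6 and H2-M5 had no probe that passed the filter.

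The 11 tested class I probes that share a run with another gene's probe had a median of 1.49, with 5 called, and the 18 that do not had a median of 0.90, with 6 called.

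B2m, the light chain, gave 2.61, 2.87, 1.14 and 2.69 on arrays 1 to 4, a mean of 2.33 ± 0.34 or 5.02-fold (adjusted p = 0.0458). Array 3 stood apart below the other 3. The peptide transporter subunits were called too. Tap1 gave 1.92, 2.23, 1.26 and 2.12 from 10 spots (mean 1.88 ± 0.23, adjusted p = 0.0308) and Tap2 gave 1.57, 1.23, 1.56 and 1.93 (mean 1.57 ± 0.19, adjusted p = 0.0316). Both lay above 1 on every array.

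The interferon-inducible proteasome subunits were uncalled and spread widely. Psmb9 gave 2.36, 0.32, 2.79 and 2.22 (mean 1.92 ± 0.44, adjusted p = 0.117), with array 2 the low one. Psmb8 gave 0.76, 2.91, 0.36 and 1.44 (mean 1.37 ± 0.44, adjusted p = 0.202), with array 2 the high one. Psmb10 gave 0.08, 1.62, 1.37 and 0.82 (mean 0.97 ± 0.30, adjusted p = 0.188). Every value of the 3 subunits was above 0, although the arrays did not keep 1 order among them. The loading chaperone Tapbp (tapasin) gave -0.54, 1.60, 0.80 and 1.16 (mean 0.75 ± 0.38, adjusted p = 0.346). Nlrc5 gave -0.25, 0.82, 0.28 and 0.82 with its brightest probe (mean 0.42 ± 0.25, adjusted p = 0.418) and 1.22, 2.26, 1.09 and 1.29 with the other (mean 1.46 ± 0.26, adjusted p = 0.0706).

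**Figure D2:**
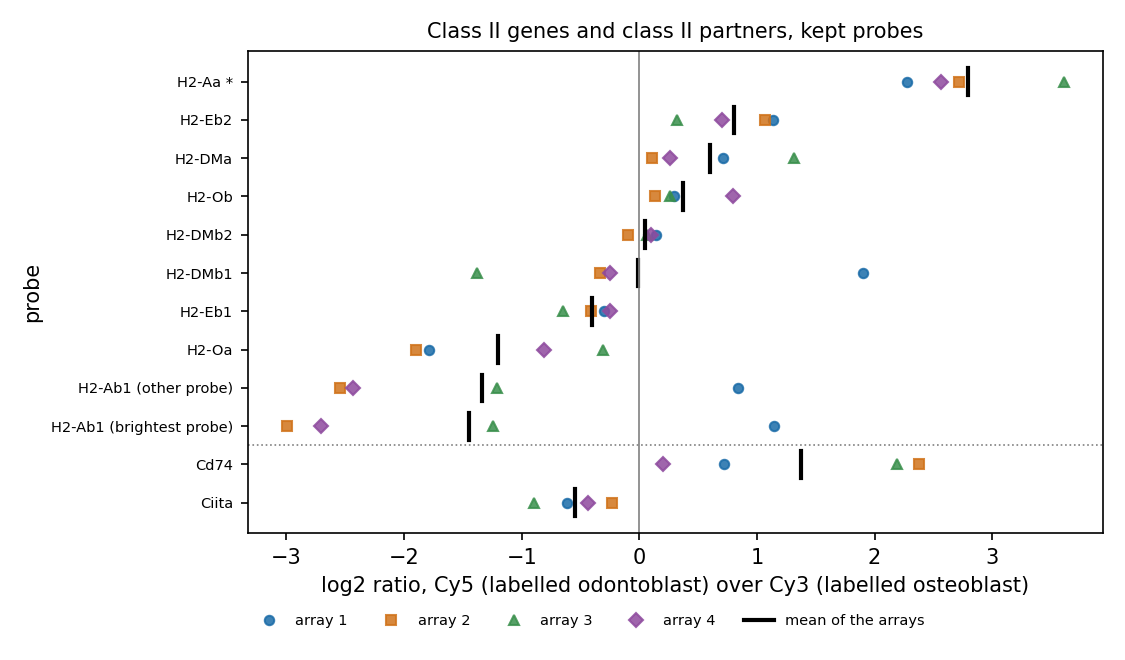
Log2 ratio of Cy5 over Cy3 (horizontal axis) of each tested probe of class II genes and class II partners (vertical axis), with 1 symbol per array and a black bar at the mean of the 4 arrays. The asterisk marks the only called probe, H2-Aa; the other class II probes lie on both sides of 0, and both H2-Ab1 probes hold array 1 far above the others.

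Class II genes were split, and the 2 chains of I-A lay on opposite sides of 0. H2-Aa, the alpha chain, gave 2.27, 2.71, 3.61 and 2.57 on arrays 1 to 4 (mean 2.79 ± 0.27, adjusted p = 0.0187). Its Cy3 signal was not well above background on any array, so it passed the filter through Cy5 alone and its fold is only a lower bound. Against the measured Cy3 value or, where that was lower, the dimmest detectable Cy3 level, its Cy5 signal was at least 6.83-fold higher. H2-Ab1, the beta chain, gave 1.15, -3.00, -1.25 and -2.71 (mean -1.45 ± 0.72, adjusted p = 0.343) and its overlapping probe 0.84, -2.54, -1.21 and -2.44 (mean -1.34 ± 0.60, adjusted p = 0.307). Both probes were above 0 on array 1 and below 0 on the other 3, so the pair had the same sign on every array. The ratios of the alpha and beta chains had opposite signs on 3 of 4 arrays, and no test of that difference was run.

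The other class II members were uncalled. H2-Oa, a subunit of the inhibitor H2-O, gave -1.78, -1.90, -0.31 and -0.81 (mean -1.20 ± 0.33, adjusted p = 0.158), all below 0, and its partner H2-Ob had a mean of 0.37. H2-Eb1, the I-E beta chain, gave -0.30, -0.41, -0.65 and -0.25 (mean -0.40, adjusted p = 0.292), and H2-Eb2 had a mean of 0.81 (adjusted p = 0.149). For the peptide exchanger H2-DM, H2-DMa had a mean of 0.60 (adjusted p = 0.289), H2-DMb1 ran from -1.38 on array 3 to 1.90 on array 1 (mean -0.01, adjusted p = 0.991), and H2-DMb2 had a mean of 0.05. Median centring turned the sign of H2-DMb1 (0.109) and H2-DMb2 (-0.18). H2-Ea-ps had no probe that passed the filter.

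Cd74, the invariant chain, gave 0.72, 2.38, 2.19 and 0.20 (mean 1.37 ± 0.43, adjusted p = 0.190), all above 0 and spread over more than 2 log2 units. The probe named Ciita gave -0.62, -0.23, -0.89 and -0.44 (mean -0.54 ± 0.19, adjusted p = 0.225). That probe is largely a repeat and shares runs with probes of genes outside the set, so its ratio is not taken as that of Ciita. H2-Ke2 (Pfdn6, a prefoldin subunit) and H2-Ke6 had means of -0.12 and 0.15.

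On each array the median of the 29 tested class I probes lay above that of the 10 class II probes. Class I medians were 1.06, 1.76, 1.04 and 1.26 on arrays 1 to 4, class I partners 1.22, 1.62, 1.14 and 1.44, and class II 0.78, -0.22, -0.12 and -0.07. The differences between class I and class II were 0.29, 1.98, 1.17 and 1.33 (mean 1.19, SD 0.70, n = 4 arrays), smallest on array 1 where class II was highest. Over all member probes without the filter they were 0.22, 1.25, 0.69 and 0.37, and with 1 probe per gene 0.34, 1.79, 0.95 and 1.07. Without probes that share a run with another gene's probe, an alternative chosen after seeing the data, the mean difference was 0.79. The 2 classes also differed in brightness. The mean log2 intensity of the tested class II probes ran from 6.65 (H2-DMb2) to 10.5 (H2-DMa). That of the 11 called class I probes ran from 11.3 to 15.3, and 9 of the 18 uncalled ones lay under 9. The part of brightness in the difference between the classes was not tested. No p is given, since the members were chosen with results known.

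Counted by probe, the highest and lowest ratios fell on different arrays in the 2 classes. Of the 29 class I probes, 21 had their highest ratio on array 2 and 18 their lowest on array 3. Of the 10 class II probes, 6 had their lowest on array 2 and 5 their highest on array 1. Class I ratios above 0 numbered 26, 26, 25 and 24 of 29 on arrays 1 to 4, and class II ratios 8, 4, 5 and 5 of 10. The probes are not separate units, since both overlapping H2-Ab1 probes enter the class II counts. Of the class I probes, 11 share a run with another gene's probe. No such counts over all tested probes stand beside these, so they describe the tested member probes only.

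**Figure D3:**
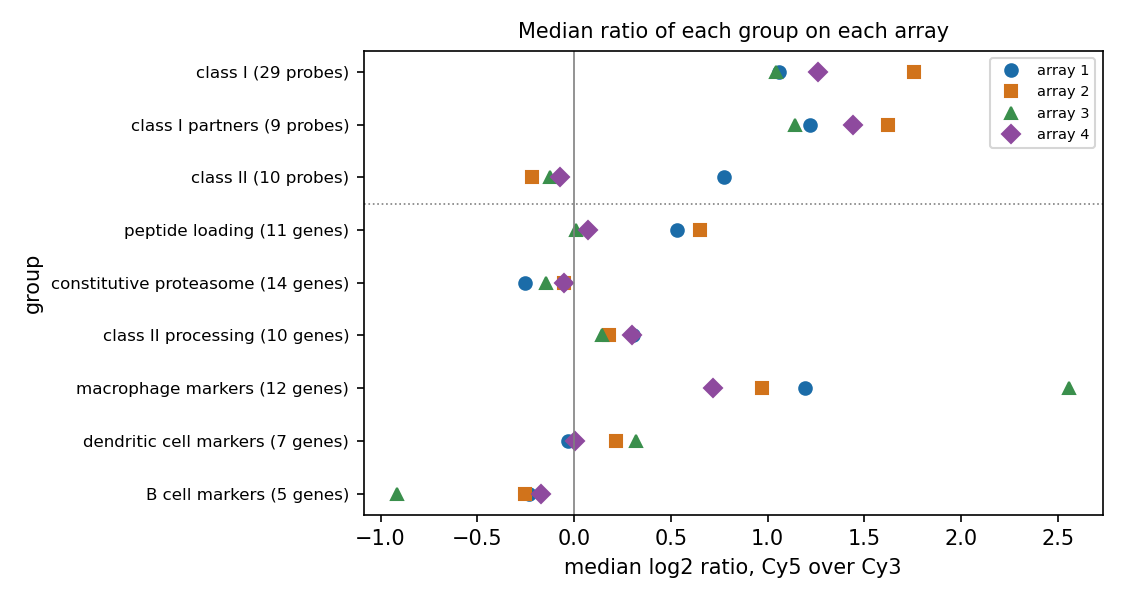
Median log2 ratio of Cy5 over Cy3 (horizontal axis) of each group of probes or genes (vertical axis) on each array, with 1 symbol per array; the dotted line separates the member classes from other lists. Class I medians lie between 1.04 and 1.76 and class II between -0.22 and 0.78, while macrophage markers run from 0.72 to 2.56.

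Other genes of the pathway came from lists chosen with earlier results known, each gene by its brightest tested probe, where 1.30% of all named genes were called in Cy5 and 0.852% in Cy3. Of 11 genes of peptide trimming and loading none was called (median 0.49), the brightest being Psme3 (-0.31) and Pdia3 (0.90). None of 14 constitutive proteasome subunits was called either (median -0.14; Psma4 -0.34, Psmb1 0.02). Of 10 genes of class II processing, the lysosomal proteases Ctss (2.78, 2.61, 3.51 and 1.69, mean 2.65, adjusted p = 0.0311), Ctsh (mean 2.09) and Ctsd (mean 1.33) were called in Cy5, and the list median was 0.18. Other lysosomal proteases of the list were uncalled, with Ctsb at -1.88 (adjusted p = 0.0782) and Ctsl at -1.46 (adjusted p = 0.118), both below 0 on all 4 arrays, and Ctsz at 0.04. The ubiquitin ligase March1 was at 0.05. Ctss is the protease that cleaves the invariant chain, and its Cy3 signal was well above background on 1 of 4 arrays. It passed the filter through Cy5 alone, and its ratio rests on dim Cy3 signals. None of 7 class II transcription genes was called (median 0.05, with Nfya 0.13 and Nfyb 0.05). Nor was any of 5 costimulation genes (Cd80 -0.05, Cd40 -1.05) or 5 nonclassical relatives (Fcgrt 0.24, Procr -1.04). Over the arrays, Cd40 ran from -3.39 to 0.25 and Procr from -3.38 to 1.79. The other tested Cd80 probe was at 1.82. None of 10 interferon gamma pathway genes was called (median -0.08, with Irf2 0.16 and Jak1 0.63).

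Among markers of other cells that carry MHC molecules, calls were confined to the macrophage and pan-leukocyte lists. Of 12 macrophage markers, Lyz2 (mean 4.42), Laptm5 (2.93) and Mrc1 (1.87) were called in Cy5. Means were above 0 for 9 of 12 and the median was 1.81, but Csf1r was -0.39 and Itgam 0.17. Other tested probes of these 2 genes reached -2.84 for Csf1r and 1.42 for Itgam. The Cy3 signals of Mrc1 and Cd53 were well above background on 1 of 4 arrays. Both genes passed the filter through Cy5 alone, and their ratios rest on dim Cy3 signals. The summed linear signal of the list ran from 114703 to 203291 in Cy5 and from 79727 to 110594 in Cy3, with all 12 genes detected in Cy5; Itgam and Csf1r, both uncalled, were its brightest probes. Cd53, found in all leukocytes, was called in Cy5 (2.46), and of the other pan-leukocyte markers Ptprc (CD45) was 0.94, Coro1a -0.22 and Rac2 -0.004, for a median of 0.47 over 4. None of 7 tested dendritic cell markers was called (median 0.09; Siglech -0.29, Zbtb46 2.00), and Itgax and Clec9a did not pass the filter. None of 5 tested B cell markers was called (median -0.46; Cr2 -0.46, Pax5 -0.05), and Ms4a1 did not pass the filter. None of 5 T cell markers (Lck -0.11, Cd3e 0.18) or 4 endothelial markers (Kdr 0.13, Pecam1 -1.04) was called. Pecam1 ran from -4.33 on array 3 to 0.66 on array 4. The part of such cells in the MHC ratios was not tested, and in sorted bulk RNA more cells of a type cannot be told apart from more RNA per cell.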

How the data were processed

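RNA of cells labelled odontoblast (Cy5) and osteoblast (Cy3) was compared on 4 arrays, which form 1 group; each array pairs the 2 RNAs of matched donors, so its ratio is the paired difference. The deposited scanner files come from Agilent Feature Extraction 10.7.3.1, per the file headers. As deposited by the authors they give, for 62976 spots, spot and background intensity from the scan, processed intensity after the software's background subtraction, a log10 ratio and flags (other numbers), per the file headers. A deposited value table holds log10 ratios that matched the software's (r 1.00). Later steps of the authors are not given in the sources used here.

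Intensities were corrected with normexp (offset 50) and normalized by loess (limma 3.58.1, R 4.3.3). Control spots (3671) were left out, 949 outlier spots set to missing and spots of a probe averaged. A probe was kept if 1 channel was well above background on 3 or more arrays. Mean log2 ratios were tested against 0 with lmFit and eBayes (two-sided), p-values were adjusted by Benjamini-Hochberg over 44239 probes, and probes were called under 0.05. The fit was tested on simulated data. Gene names came from RefSeq (GRCm38.p6): 27235 probes by accession, 3581 by symbol, 565 by older name, 24300 unnamed.

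Members, lists and alternatives were chosen with earlier results of these data known. Named are every called member, the class II genes, H2-K1, H2-D1 and the 10 partners, the 3 highest and 3 lowest other class I genes, and of each other list the called and the 2 brightest uncalled genes. H2-Q4, H2-Q8, H2-Ke2, H2-Ke6, H2-M1, H2-M9, H2-T3, Nes, Sp7, Alpl, Ctsb, Ctsl and Coro1a were named outside this rule or after their values were seen. A marker and a probe sequence are not reported here.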

Additional observations from a re-analysis of the deposited data

Results flagged for a closer look

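For the brightest H2-K1 probe, array 2 (2.07) lay apart from the other 3 arrays (1.34 to 1.45). For B2m, array 3 (1.14) lay apart below the other 3 (2.61 to 2.87), and its 2 spots there had an SD of 0.26. Chance marks about 1 in 20 such groups of 4, and 46 were looked at, of which these 2 were marked.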

How the results depend on the processing

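Of 15 member probes called in Cy5, 3 were called with Agilent processed signals and 3 with the deposited value table, 8 with a normexp offset of 0, 7 with scale normalization between arrays and 23 with median centring; leaving out 1 array at a time gave 0 to 5. The other alternatives (no filter, both channels on all arrays, 1 probe per gene, outlier spots kept, eBayes with trend and robust, and without probes that share a run) gave 10 to 19. No alternative called a member in Cy3. Over all tested probes, 0.703% were called in Cy5 with processed signals and with the value table. The share was 0.839% with offset 0, 1.11% with scale normalization and 5.07% with median centring. The class I minus class II difference stayed above 0 throughout, from 0.63 without the filter to 1.73 with median centring. No called gene changed sign. Uncalled ratios near 0 did: H2-DMb1 was 0.088 with processed signals and with the value table, 0.075 with offset 0, 0.109 with median centring, and -0.65 to 0.44 with 1 array left out; H2-Ke2 was 0.59 with median centring and -0.47 to 0.074 with 1 array left out; H2-T24 was 0.043, H2-M3 -0.11 and H2-DMb2 -0.18 with median centring. The cause of these shifts was not tested. No replicate block was fitted, since the arrays form 1 group and the ratio of each array is already the paired difference. Precision is limited by the 4 arrays. In 9 of the 67 probes neither channel was well above background on any array; their ratios enter only the values without the filter.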
